A study of Mus musculus with 18 samples.

Results

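The lacrimal gland (LG) of male BALB/c mice was compared between 4 and 6 months of age (4M and 6M). The comparison used every BALB/c mouse of these ages, 3 at 4M and 3 at 6M, which are 6 of the 18 libraries of the series. All 16622 genes with enough counts in these 6 mice, of 54232 in the count table, were tested. BALB/c (BALB/cJ) is the inbred strain that the study set beside NOD.H-2b (NOD.B10Sn-H2b/J), which develops a Sjögren-like inflammation of the LG. Each library was made from total RNA of 1 LG of 1 male, depleted of ribosomal RNA. The other libraries were BALB/c at 2 months (2M) and NOD.H-2b at 2M, 4M and 6M, with 3 males each. The comparison asked how the gland of the control strain changed over the interval in which NOD.H-2b disease advances.

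The LG is an exocrine gland whose acinar cells make the watery layer of the tear film with its proteins. In male mice these are mainly secretoglobins, lipocalin-type odorant carriers, exocrine gland secreted peptides and lipases. Plasma cells that lie between the acini make IgA, which the epithelium carries into tears. Ducts, myoepithelial cells, capillaries, matrix and a few macrophages and lymphocytes make up the rest.

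The 6 libraries held 50032070 to 103936830 counts, the 6M replicate 1 library being the deepest. Levels are given as CPM, the normalised read count relative to the library total after trimmed mean (TMM) scaling, and differences as log2 fold change of 6M over 4M with its standard error (SE). The adjusted p is the Benjamini-Hochberg false discovery rate (FDR) of edgeR's quasi-likelihood F test over all genes tested. The replicates were separate mice, so the test sets the difference between ages against the spread between mice, which edgeR moderates across genes. Markers of the gland were abundant in every mouse, with the acinar secretoglobin Scgb2b7 at 56624 to 75267 CPM and the acinar transcription factor Bhlha15 at 650 to 920 CPM. Markers of blood-borne lymphocytes were scarce. The B cell gene Ms4a1 had 0 counts in 3 of the 6 mice and the T cell gene Cd3e had 8 to 75 counts, the highest in 4M replicate 3. The muscle gene Acta1 and the salivary gene Smgc were at 0 to 2 counts.

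Few single genes changed from 4M to 6M. At an FDR under 0.05 and a change of at least 2-fold, 6 genes were called, which is 0.0361% of those tested, 3 higher and 3 lower at 6M. Without the limit on fold change 51 genes passed, 29 higher at 6M (0.174%) and 22 lower (0.132%). The 45 of them under 2-fold had absolute log2 fold changes of 0.29 to 0.90. The genes that rose were 26 protein coding genes, 1 processed pseudogene, 1 immunoglobulin variable pseudogene and 1 long non-coding RNA. The genes that fell were 12 protein coding genes, 8 short nuclear RNAs and 2 immunoglobulin lambda genes. An unadjusted p under 0.05 was reached by 1311 genes higher and 1272 lower at 6M. The median log2 fold change over all genes was -0.0028, with quartiles of -0.15 and 0.14.

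**Figure D1:**
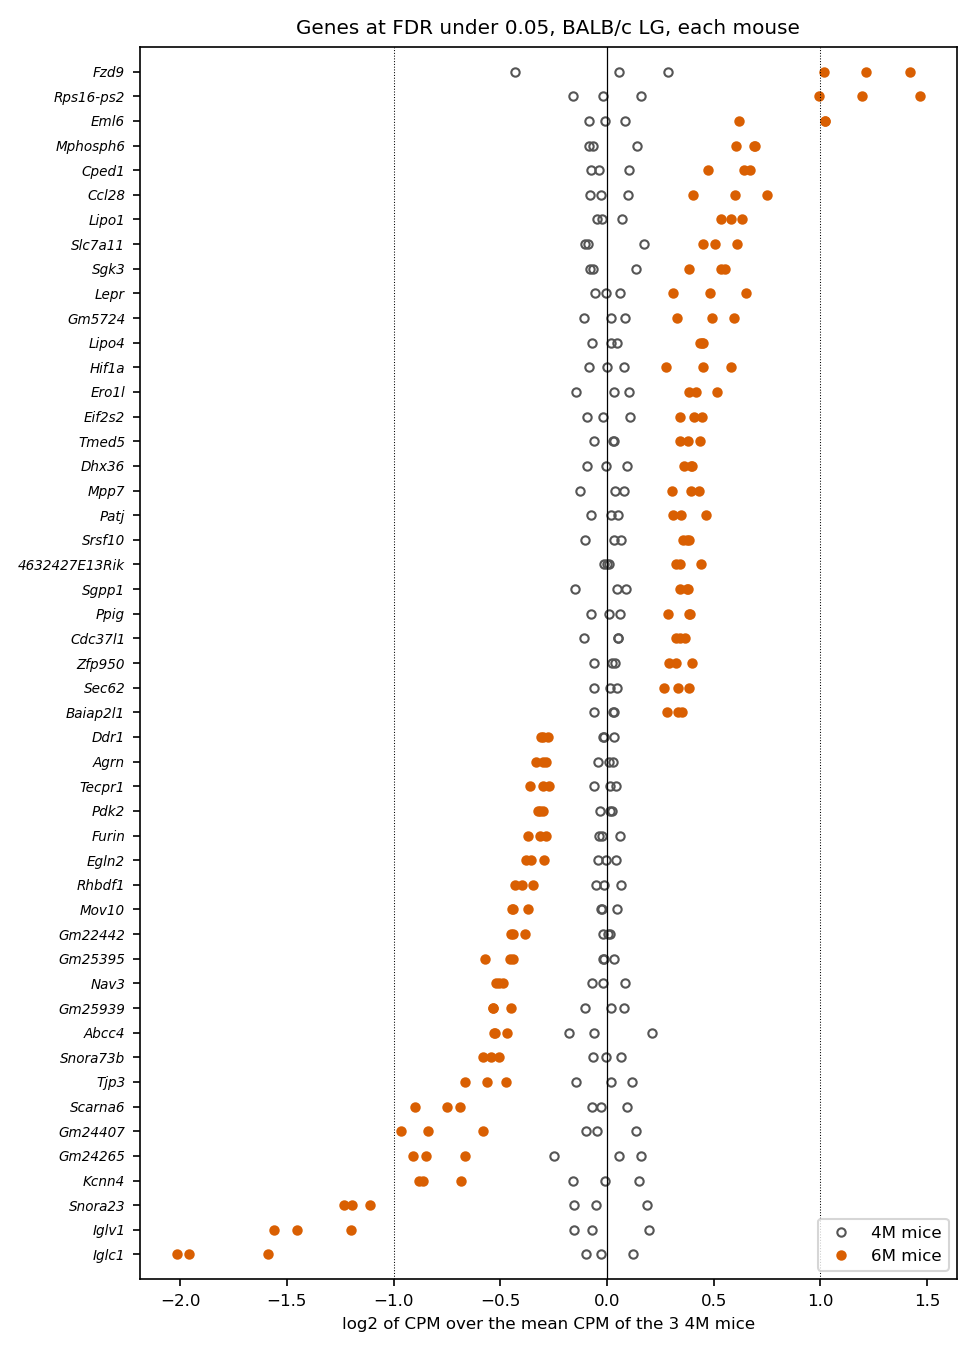
Level of the named genes with an FDR under 0.05 in each BALB/c mouse (x axis, log2 of CPM over the mean of the 3 4M mice). Open circles are 4M mice and filled circles 6M mice. Ighv12-2, which had no counts in 2 of the 4M mice, is not drawn. In every gene drawn the ages are apart, most by less than the 2-fold shift that the dotted lines mark, and Iglc1 and Iglv1 lie farthest to the left.

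Short nuclear RNAs were the largest class, after protein coding genes, among those that fell. Small nuclear RNAs (snRNAs) form the spliceosome. Most, but not all, small nucleolar RNAs (snoRNAs) guide the modification of ribosomal RNA, and the small Cajal body RNAs (scaRNAs) guide that of snRNAs. The sequences of the 8 that passed the test are given here from the GENCODE M21 transcripts on GRCm38, whose reference strain is C57BL/6J and not BALB/c. In Snora73b, Snora23 and Gm22442 the capitals mark the last ACA, the box near the 3′ end that is typical of H/ACA RNAs. It was found in the last 8 bases of 614 of 961 annotated snoRNA and scaRNA transcripts of 120 to 300 bases (63.9%).
Snora73b, chr4:132352322-132352526, minus strand, overlapping Rcc1 and Snhg3, and Gm17300 on the other strand: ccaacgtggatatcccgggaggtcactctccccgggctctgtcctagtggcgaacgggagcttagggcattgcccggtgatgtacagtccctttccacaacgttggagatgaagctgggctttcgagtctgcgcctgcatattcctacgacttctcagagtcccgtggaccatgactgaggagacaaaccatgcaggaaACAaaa
Snora23, chr7:110046364-110046547, plus strand, in Ipo7: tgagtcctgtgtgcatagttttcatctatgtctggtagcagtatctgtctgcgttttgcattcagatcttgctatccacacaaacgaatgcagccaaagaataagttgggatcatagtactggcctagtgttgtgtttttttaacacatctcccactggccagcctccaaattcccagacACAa
Gm22442, a scaRNA at chr11:69350518-69350661, minus strand, in Chd3: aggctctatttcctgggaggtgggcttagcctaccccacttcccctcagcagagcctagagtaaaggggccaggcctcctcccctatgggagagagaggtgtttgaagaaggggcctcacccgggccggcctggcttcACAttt

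The scaRNAs Gm25395 and Scarna6 both lie in Atg16l1, 7346 bases apart on the same strand, and were 62.6% identical when aligned. Capitals mark their longest shared run, of 13 bases.
Gm25395, chr1:87776938-87777209, plus strand: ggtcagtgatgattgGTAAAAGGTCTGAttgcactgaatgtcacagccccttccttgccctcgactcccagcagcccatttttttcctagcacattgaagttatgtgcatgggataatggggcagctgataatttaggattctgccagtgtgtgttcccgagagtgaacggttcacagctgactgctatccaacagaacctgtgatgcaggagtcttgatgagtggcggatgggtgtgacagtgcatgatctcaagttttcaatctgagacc
Scarna6, chr1:87784556-87784820, plus strand: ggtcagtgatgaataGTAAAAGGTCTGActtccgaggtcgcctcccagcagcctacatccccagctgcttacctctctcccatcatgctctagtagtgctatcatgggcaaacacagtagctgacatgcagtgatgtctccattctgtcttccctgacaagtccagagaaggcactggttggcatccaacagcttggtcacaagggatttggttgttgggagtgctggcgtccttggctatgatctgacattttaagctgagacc

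The snRNAs Gm24265 and Gm24407 are neighbours, 654 bases apart, and match at 139 of 141 bases. Capitals mark the bases that differ between them. In Gm25939 capitals mark the 3 bases that differ from the U2 gene Rnu2-10, to which it was 98.4% identical over 191 bases. Snora73b in turn was 96.6% identical to Snora73a. Reads of such copies may be shared between loci, so the level of any one copy is uncertain.
Gm24265, chr5:115489459-115489599, plus strand: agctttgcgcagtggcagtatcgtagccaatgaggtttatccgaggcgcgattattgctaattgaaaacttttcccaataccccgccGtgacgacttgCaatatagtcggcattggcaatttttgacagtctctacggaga
Gm24407, chr5:115490254-115490394, plus strand: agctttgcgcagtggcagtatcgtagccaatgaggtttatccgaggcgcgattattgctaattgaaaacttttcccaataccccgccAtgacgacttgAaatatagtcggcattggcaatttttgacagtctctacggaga
Gm25939, chr1:72255008-72255198, plus strand: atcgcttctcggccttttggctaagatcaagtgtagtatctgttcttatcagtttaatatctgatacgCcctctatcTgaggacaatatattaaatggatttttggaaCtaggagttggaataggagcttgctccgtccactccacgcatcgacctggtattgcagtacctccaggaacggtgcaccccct

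Snora73b was at 49.4, 47.4 and 52.0 CPM in the 4M mice and at 33.1, 34.0 and 34.9 CPM in the 6M mice. The 2 ages lay far apart relative to their own spread, and the RNA fell by 0.54 on the log2 scale (SE 0.0585, FDR = 0.00535). Gm25395 was at 94.7, 94.8 and 98.2 CPM at 4M and at 70.6, 70.1 and 64.5 CPM at 6M, a log2 fold change of -0.49 (SE 0.0559, FDR = 0.00535). These 2 RNAs passed the test whichever mouse was left out.

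Scarna6 was at 11.5, 12.5 and 11.2 CPM at 4M and at 6.98, 6.30 and 7.29 CPM at 6M (log2 fold change -0.78, FDR = 0.00796). Snora23, the least abundant of the 8, was at 2.88, 3.10 and 3.65 CPM at 4M and at 1.37, 1.49 and 1.40 CPM at 6M (log2 fold change -1.18, SE 0.175, FDR = 0.0220). It was the only one to reach 2-fold, and it missed the threshold when any mouse other than 6M replicate 3 was left out. The near-identical snRNAs Gm24265 and Gm24407 fell alike, with log2 fold changes of -0.80 and -0.78. Gm25939 fell by 0.51 and Gm22442 by 0.42 on the log2 scale.

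Most well-measured members of these classes were lower at 6M. The classes were grouped after the falls were seen, so the called members among them are no separate support. Of the 132 snRNAs, snoRNAs and scaRNAs tested, 84 were lower at 6M, and their median log2 fold change was -0.18 against -0.0028 over all genes. All 3 6M mice lay below all 3 4M mice in 29 of them (22%), and above in 10 (7.58%). Over all genes tested, 11.1% had ages that did not overlap with 6M lower and 10.9% with 6M higher. Above an average log2 CPM of 3 all 10 members were lower at 6M without overlap, with a median of -0.50 and a range of -0.80 to -0.26, and 7 of them passed the test. Of the 7338 genes at that level, 14.5% were lower without overlap, and 21 were called lower, these 7 among them. Of the 17 members with an average log2 CPM from 0 to 3, 15 were lower, 8 of these without overlap. Of the 105 fainter ones 59 were lower. When any one mouse was left out, 32 to 39 of the members were lower without overlap, with 1 mouse fewer to separate. Over all genes tested, 2464 to 3156 were then lower without overlap, against 1843 with all 6 mice.

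The genes that harbour these RNAs did not pass the test. Atg16l1, an autophagy gene, was at 28.9, 30.2 and 29.2 CPM at 4M and at 27.8, 27.3 and 28.6 CPM at 6M, a log2 fold change of -0.08 against -0.49 and -0.78 for the scaRNAs within it. Chd3 had a log2 fold change of -0.16, Ipo7 of 0.06, Rcc1 of -0.21 and Snhg3 of -0.03, with FDR values of at least 0.391. The hosts were named after the values of the short RNAs were seen. Taken as a share of all counts, snRNAs, snoRNAs and scaRNAs made up 0.0502%, 0.0509% and 0.0593% in the 4M mice and 0.0391%, 0.0387% and 0.0358% in the 6M mice. The ages did not overlap. The share holds the called members, and its classes were grouped after the falls were seen, so it is a description and no separate support.

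Rn7sk and Vaultrc5, short RNAs made by RNA polymerase III and chosen after their values were seen, lay on the same side. Rn7sk (7SK RNA, which holds back the elongation factor P-TEFb) was at 2770, 2720 and 3189 CPM at 4M and at 2145, 2469 and 2353 CPM at 6M. Its log2 fold change of -0.32 did not pass the test (FDR = 0.117), although the ages did not overlap. The vault RNA Vaultrc5 had a log2 fold change of -0.95 (FDR = 0.0936), also without overlap. Its GENCODE biotype, misc_RNA, showed no such lean. Of 40 tested, 4 were higher and 4 lower without overlap (10.0% each, against 10.9% and 11.1% of all genes). Their median was -0.068, and none passed the test.

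**Figure D2:**
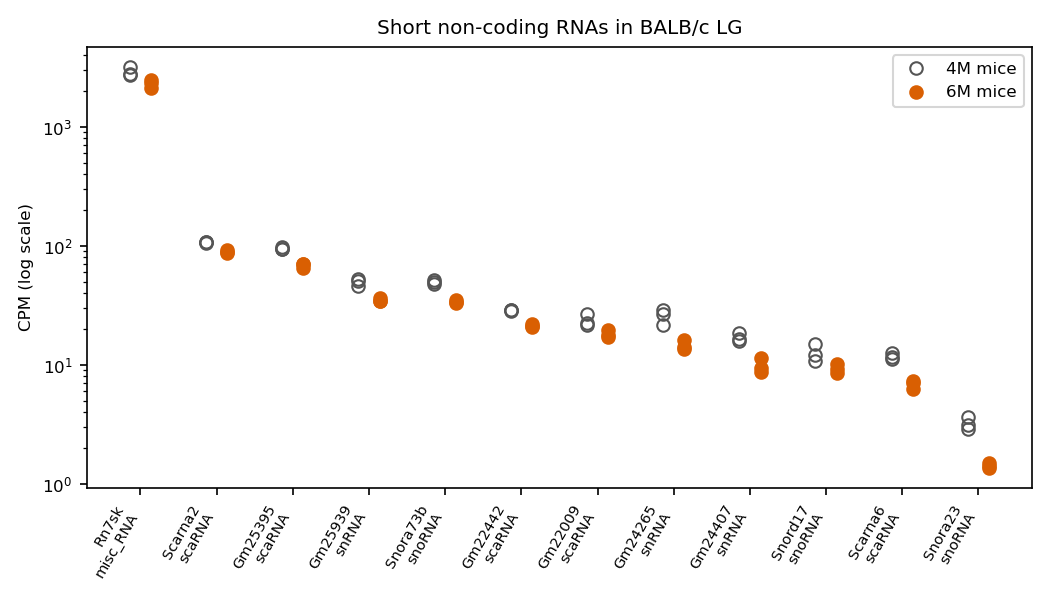
CPM (log scale) of short non-coding RNAs in the 3 4M mice (open circles) and 3 6M mice (filled circles), ordered by abundance, with the biotype under each name. The 10 snRNAs, snoRNAs and scaRNAs above an average log2 CPM of 3 are drawn with Snora23 and Rn7sk, and all 6M points lie below the 4M points of the same RNA.

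The largest decrease among the called genes was in immunoglobulin lambda light chain RNA. A mouse antibody carries either kappa or lambda light chains, and kappa is used by most mouse B cells. Iglc1 is the constant and Iglv1 the variable segment of the main lambda chain. They lie 22945 bases apart on chromosome 16. The first 120 bases of Iglc1 (454 bases, chr16:19061618-19062071, minus strand, GENCODE M21 on GRCm38) are shown because they bear on whether its reads can be told from those of other lambda constant genes. Capitals mark the bases that differ from Iglc2.
Iglc1: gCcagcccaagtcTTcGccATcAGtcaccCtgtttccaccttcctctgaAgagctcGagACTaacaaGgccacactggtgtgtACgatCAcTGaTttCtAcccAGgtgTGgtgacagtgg
Iglc1 was 73.8% identical to Iglc2 and 74.8% to Iglc3, whereas Iglc2 and Iglc3 were 95.7% and Iglv1 and Iglv2 96.3% identical. Levels of the latter pairs are uncertain for that reason. Iglc1 and Iglv1 are both overlapped on the other strand by 2010309G21Rik, and whether the counting used the strand is not given in the sources used here.

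Iglc1 was at 13.8, 14.5 and 16.1 CPM in the 4M mice (mean 14.8 ± 1.16, SD, n = 3) and at 4.91, 3.65 and 3.80 CPM in the 6M mice (4.12 ± 0.685, n = 3). It fell by 1.83 on the log2 scale (SE 0.124, FDR = 0.000137), to 0.282 of the 4M level. Iglv1 was at 11.6, 12.3 and 14.8 CPM at 4M and at 4.69, 5.59 and 4.36 CPM at 6M, a log2 fold change of -1.40 (SE 0.125, FDR = 0.00134). Both passed the test whichever mouse was left out. In bulk tissue, fewer cells of a type and less RNA per cell cannot be told apart.

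IgA, kappa and joining chain genes varied between mice of 1 age, and none passed the test. Igha, the IgA heavy chain constant gene, was at 587, 438 and 885 CPM at 4M and at 471, 796 and 532 CPM at 6M, and the ages overlapped (log2 fold change -0.09). Igkc, the kappa constant gene, was at 314, 217 and 474 CPM at 4M and at 251, 475 and 315 CPM at 6M (log2 fold change 0.05). Jchain, which joins IgA into dimers, had a log2 fold change of 0.15. For each 1000 Igkc counts there were 43.9, 66.6 and 33.8 Iglc1 counts at 4M and 19.6, 7.69 and 12.1 at 6M. Every 6M mouse was below every 4M mouse. Iglc1 was picked for its fall in these same mice, so the ratio is a description and no separate support. Igkc and Jchain were named after their values were seen.

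Lambda genes other than Iglc1 and Iglv1 did not pass the test. Iglc2 was at 3.17, 2.06 and 6.16 CPM at 4M and at 3.15, 2.76 and 1.34 CPM at 6M. Iglv2 was at 1.70, 0.705 and 2.96 CPM at 4M and at 1.59, 0.405 and 0.0212 CPM at 6M. In both genes the ages overlapped and 6M replicate 3 was the lowest mouse. All 4 of these other genes had values below 0, with log2 fold changes of -0.64 for Iglc2, -1.33 for Iglc3, -1.30 for Iglv2 and -0.15 for Iglv3. Without 4M replicate 3 the median of the 3 Iglc genes went from -1.33 to -0.13 and that of the 3 Iglv genes from -1.30 to -0.73.

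Lambda transcripts were far lower at 2M, as were other immunoglobulin RNAs. Heavy chain constant genes took 0.00213% to 0.00448% of counts at 2M and 0.0444% to 0.0976% at 4M. Kappa variable segments took 0.0026% to 0.00377% at 2M and 0.0151% to 0.0349% at 4M. Iglc1 was at 0.402, 0.442 and 0.645 CPM in the 2M mice, and its log2 fold change from 2M to 4M was 4.89 (FDR = 5.5e-10). The comparison of 4M with 2M uses the same 4M mice as that of 6M with 4M, so their values are only set side by side. In NOD.H-2b, Iglc1 was at 23.7, 37.9 and 17.6 CPM at 4M and at 32.2, 78.8 and 46.8 CPM at 6M, which did not pass the test (log2 fold change 0.99, FDR = 0.375). The difference between the strains in the change of Iglc1, 2.80 on the log2 scale, had an unadjusted p of 0.000391 and an FDR of 0.476 by edgeR's quasi-likelihood F test of the interaction, and an FDR of 0.000131 by DESeq2's Wald test.

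Usage of variable segments differed between mice of the same age. Ighv10-1 took 44.7% of all heavy chain variable counts in 4M replicate 3, 13.6% in 4M replicate 1 and 14.5% in 6M replicate 3. In the other mice Ighv1-9 (10.4%, 4M replicate 2), Ighv2-2 (4.61%, 6M replicate 1) and Ighv5-6 (8.05%, 6M replicate 2) led. Among kappa variable segments, Igkv1-110 led in 4M replicate 3 with 28.8%, and Igkv14-111 led in 6M replicates 1 and 2 with 8.81% and 6.65%. Thus 4M replicate 3 had the most uneven repertoire and 6M replicate 1 the most even heavy chain repertoire. IgA was the heavy chain class of 97.1% to 98.7% of heavy chain constant counts in every mouse of both ages.

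Of the 69 heavy chain variable segments tested, 6 were higher and 4 lower at 6M without overlap (8.70% and 5.80%). Of the 68 kappa variable segments 6 were higher and 1 lower (8.82% and 1.47%). None of these shares exceeded those over all genes, 10.9% higher and 11.1% lower. One pseudogene, Ighv12-2, passed the test, and stayed past the threshold in 7 of 15 alternatives. The call was lost by DESeq2's Wald test and without 6M replicate 2 or any one of the 4M mice. It had 1, 0 and 0 counts at 4M and 23, 31 and 16 counts at 6M, a ratio of 64.8 in pooled CPM with an exact 95% interval of 11.2 to 2590 that covers counting error only.

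**Figure D3:**
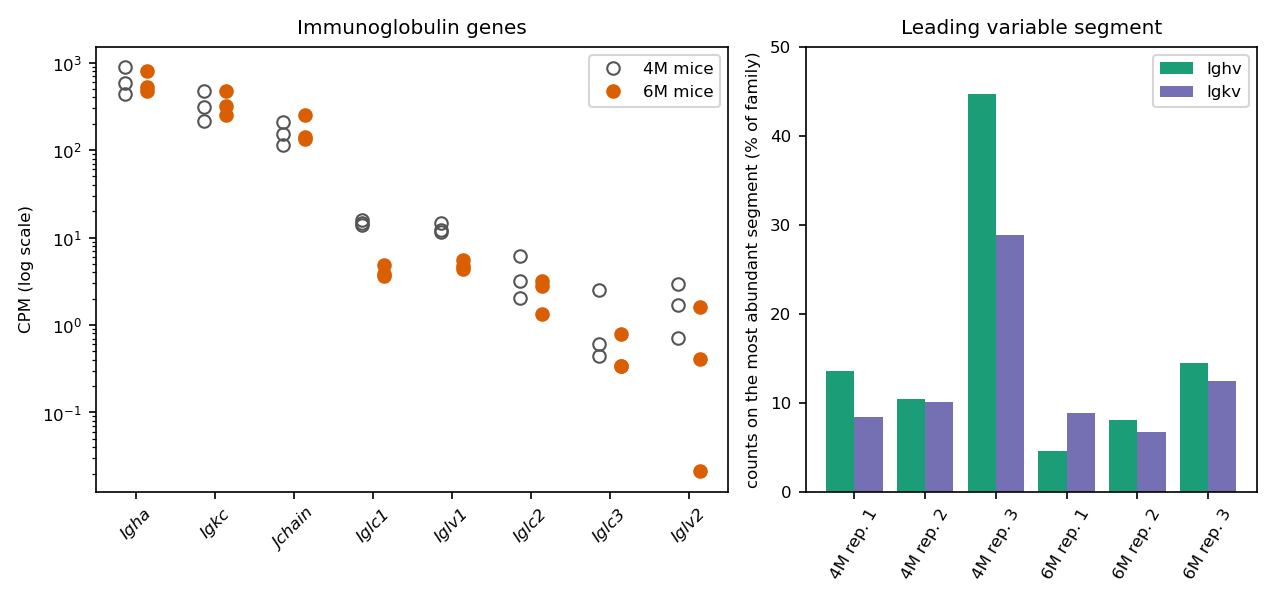
Left, CPM (log scale) of immunoglobulin constant, joining chain and lambda variable genes in the 4M (open circles) and 6M (filled circles) mice. Right, share of the counts of a variable family that fell on its most abundant segment in each mouse, as bars from 0. Iglc1 and Iglv1 separate the ages, Igha and Igkc do not, and 4M replicate 3 has the tallest bars, 44.7% for Ighv and 28.8% for Igkv.

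Among products of the secretory epithelium, the lipase genes Lipo1 and Lipo4 rose, 2 of the 5 Lipo genes tested. The Lipo genes on chromosome 19 code for secreted relatives of gastric lipase that are abundant in rodent exocrine glands. Lipo1 was at 4884, 5293 and 4959 CPM at 4M and at 7817, 7307 and 7556 CPM at 6M, an increase of 0.58 on the log2 scale (SE 0.0672, FDR = 0.00535). Lipo4, 257717 bases away, was at 80.9, 82.7 and 76.2 CPM at 4M and at 108, 109 and 109 CPM at 6M (log2 fold change 0.44, SE 0.0531, FDR = 0.00706). The 3 6M values of Lipo4 were almost equal. Of the remaining members, all named after values were seen, Lipo3 was higher in every 6M mouse (0.38), while the ages overlapped in Lipo2 (0.44) and Lipo5 (0.79), and none passed the test. Lipo1 missed the threshold without 4M replicate 1 (FDR = 0.0542), and Lipo4 without 6M replicate 2 (FDR = 0.0564) and in the fit of all 18 mice (FDR = 0.165).

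At 2M, Lipo1 was at 9253, 9742 and 10140 CPM, above both later ages, and its log2 fold change from 2M to 4M was -0.94. In NOD.H-2b it was at 7997, 8334 and 8216 CPM at 4M and at 7101, 9096 and 8715 CPM at 6M, a log2 fold change of 0.02.

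Ccl28, an epithelial chemokine that attracts IgA plasma cells to mucosal tissue, was at 246, 269 and 237 CPM at 4M and at 332, 421 and 379 CPM at 6M. It rose by 0.59 on the log2 scale (SE 0.0852, FDR = 0.0263). The call was lost without 6M replicate 2 or without any one of the 4M mice. It was also lost in the fit without robust estimation and in the fit of all 18 mice. In NOD.H-2b the values of Ccl28 were 265, 367 and 464 CPM at 4M and 169, 248 and 209 CPM at 6M, a log2 fold change of -0.81 that did not pass (FDR = 0.321). The difference between the strains was -1.41 on the log2 scale (FDR = 0.470 by edgeR and 9.53e-05 by DESeq2).

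No gene of the large secretory families passed the test, and more secretoglobins were higher than lower at 6M. Of 28 secretoglobin genes tested, 11 were higher and 2 lower at 6M without overlap (39.3% and 7.14%, against 10.9% and 11.1% of all genes), with a median log2 fold change of 0.31. Without 6M replicate 3, 17 were higher without overlap, and 3 higher and 1 lower passed the test. Over all 17115 genes tested without that mouse, 3122 were higher and 3156 lower without overlap, and 141 and 102 passed. Scgb2b7 was at 59692, 63012 and 56624 CPM at 4M and at 68578, 64183 and 75267 CPM at 6M (log2 fold change 0.21, FDR = 0.263). Scgb2b2, nearly as abundant, was at 48858, 50019 and 47666 CPM at 4M and at 38323, 39474 and 38446 CPM at 6M, the other direction (log2 fold change -0.33, FDR = 0.0745). Secretoglobins as a whole took 33.4% to 33.8% of counts at 4M and 33.9% to 35.7% at 6M. Paralogs of this family are similar to each other, so the authors' counting could have split their reads.

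Exocrine gland secreted peptides, pheromones of male tears, leaned upward. Of 13 tested, 7 were higher and 0 lower at 6M without overlap (53.8% and 0%), with a median log2 fold change of 0.37 and none past the test. Without 4M replicate 3 the median was 0.22, 7 were higher and 2 lower without overlap, and 1 each way passed the test. Over all 16760 genes tested in that setting, 2437 were higher and 2464 lower without overlap, and 5 and 9 passed. Esp16 was at 9690, 9606 and 7674 CPM at 4M and at 12406, 12127 and 12350 CPM at 6M (log2 fold change 0.45, FDR = 0.0688). Esp15 was at 15598, 15207 and 12404 CPM at 4M and at 16854 to 19689 CPM at 6M (log2 fold change 0.38, FDR = 0.131). In both peptides 4M replicate 3 was the lowest mouse. Mup4, a major urinary protein made in the LG, had overlapping ages (0.18).

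Ion transport and epithelial junction genes were among the others that changed. Kcnn4, a calcium-activated potassium channel used in fluid secretion, was at 22.9, 25.4 and 28.3 CPM at 4M and at 15.9, 14.1 and 13.9 CPM at 6M. It fell by 0.80 on the log2 scale (SE 0.0920, FDR = 0.00535) and passed without any one mouse. Nav3, a microtubule-binding navigator, was at 80.5, 86.2 and 77.6 CPM at 4M and at 57.4, 56.8 and 58.1 CPM at 6M (log2 fold change -0.50, FDR = 0.00535). The tight junction gene Tjp3 fell by 0.57 and the transporter Abcc4 by 0.51 on the log2 scale. The polarity genes Patj (0.38) and Mpp7 (0.38) and the actin-membrane adaptor Baiap2l1 (0.32) rose. Abcc4, Patj, Mpp7 and Baiap2l1 missed the threshold in the fit without robust estimation. Within the list of 26 ductal and myoepithelial genes tested, Kcnn4 was the only one past the test, where 0.132% of all genes were called lower. In this list 5 were lower and 1 higher without overlap (19.2% and 3.85%, against 11.1% and 10.9% of all genes).

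Further genes that fell, all under 2-fold, were the RNA helicase Mov10 (-0.42), the inactive rhomboid Rhbdf1 (-0.39), the prolyl hydroxylase Egln2 (-0.34), the proprotein convertase Furin (-0.32), the pyruvate dehydrogenase kinase Pdk2 (-0.31), the autophagy gene Tecpr1 (-0.31), the basement membrane proteoglycan Agrn (-0.31) and the collagen receptor Ddr1 (-0.29). Of these only Mov10 stayed past the threshold without robust estimation, and all missed it when some single mice were left out. Hif1a, whose protein is a target of the Egln2 family of oxygen sensors, was at 61.5, 65.2 and 58.1 CPM at 4M and at 84.2, 92.0 and 74.6 CPM at 6M, and rose by 0.44 on the log2 scale (FDR = 0.0478). Hif1a likewise missed the threshold without robust estimation and without any one mouse other than 6M replicate 3.

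Genes that rose and serve protein synthesis or folding were Eif2s2, a subunit of translation initiation factor eIF2 (0.40), Sec62, of the ER translocon (0.33), Tmed5, a cargo receptor between ER and Golgi (0.39), and Ero1l, the ER oxidase that drives disulphide formation (0.44). Srsf10 (0.37), Ppig (0.35) and Dhx36 (0.39) act in RNA splicing or unwinding. Sgk3 (0.49) and Slc7a11 (0.52), a kinase and the cystine transporter, and Lepr (0.49), the leptin receptor, also rose. Eml6 (0.90), Mphosph6 (0.66), Cped1 (0.60), Gm5724 (0.48), 4632427E13Rik (0.37), Sgpp1 (0.36), Cdc37l1 (0.34) and Zfp950 (0.34) were also past the test with a change under 2-fold. In the fit without robust estimation, Cped1 alone of the genes in this paragraph stayed past the threshold, and 4 genes in all were called higher. Every gene of this paragraph, Cped1 included, also missed it when some single mice were left out. Cped1 was at 15.8, 17.4 and 15.4 CPM at 4M and at 25.2, 25.7 and 22.4 CPM at 6M. Its level at 2M was 6.42 to 7.25 CPM, and the log2 fold change from 2M to 4M was 1.22.

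The 2 remaining genes that rose at least 2-fold were faint. Fzd9, a Wnt receptor, was at 1.26, 1.49 and 0.903 CPM at 4M and at 3.26, 2.82 and 2.46 CPM at 6M (log2 fold change 1.24, SE 0.221, FDR = 0.0478). The pseudogene Rps16-ps2, which can share reads with Rps16, was at 1.06, 0.966 and 1.20 CPM at 4M and at 2.15, 2.98 and 2.46 CPM at 6M (log2 fold change 1.22, SE 0.206, FDR = 0.0426). Their ages did not overlap, but both missed the threshold when any mouse other than 6M replicate 3 was left out. Wnt signalling genes did not follow Fzd9. Of 47 tested, Fzd9 was the only one called, 3 were higher and 3 lower without overlap (6.38% each), and the median log2 fold change was -0.14. The other 9 frizzled receptors were not called, the most abundant being Fzd5 (-0.15).

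Ribosomal protein genes showed a small shift in 1 direction. Of 77 tested, 48 were lower and 1 higher at 6M without overlap (62.3% and 1.30%, against 11.1% and 10.9% of all genes). The median log2 fold change was -0.11, and none passed the test. Rps16 was at 73.3, 73.5 and 74.6 CPM at 4M and at 65.3, 58.9 and 58.7 CPM at 6M (log2 fold change -0.28, FDR = 0.0745). Rps29 was at 82.7, 88.1 and 98.3 CPM at 4M and at 73.7, 74.7 and 69.9 CPM at 6M (-0.30, FDR = 0.0838). Rpl4, the most abundant, had overlapping ages (0.06). The family took 0.746%, 0.723% and 0.792% of counts at 4M and 0.689%, 0.690% and 0.639% at 6M (exact two-sided permutation p = 0.1, the smallest value that 3 against 3 allows). Leaving out any one mouse, 48 to 53 genes were lower without overlap. Over all genes tested 2464 to 3156 then were, against 1843 with all 6 mice.

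No gene of the energy metabolism lists passed the test. Of the 9 mitochondrially encoded protein genes tested, 5 were higher and 0 lower without overlap (55.6% and 0%, against 10.9% and 11.1% of all genes), with a median log2 fold change of 0.27. Without 6M replicate 1 all 9 were higher without overlap, as were 2514 of all 16880 genes tested in that setting. All mitochondrially encoded genes, of which these 9 are a part, took 2.22%, 2.16% and 2.24% of all counts at 4M. At 6M they took 2.02%, 2.41% and 2.38%, which overlapped (exact two-sided permutation p = 0.6). The 9 summed to 6150, 6110 and 5575 CPM at 4M and to 5999, 6838 and 7503 CPM at 6M, also with overlap. The complex I subunit mt-Nd6 was at 63.0, 60.2 and 45.7 CPM at 4M and at 78.0, 88.5 and 93.2 CPM at 6M (0.62, FDR = 0.0995), and mt-Co1, the most abundant, had overlapping ages (0.11). Of 54 nuclear genes of the respiratory chain 14 were lower and 3 higher without overlap (25.9% and 5.56%), with a median of -0.057. Of 26 genes of the TCA cycle 8 were lower and 1 higher (30.8% and 3.85%), and of 31 genes of fatty acid beta oxidation 8 and 1 (25.8% and 3.23%). A difference between the mitochondrial and nuclear genes was not tested. Pcx, pyruvate carboxylase, was at 105, 98.4 and 99.5 CPM at 4M and at 85.4, 82.1 and 79.3 CPM at 6M, and narrowly missed the threshold (-0.30, FDR = 0.0550).

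Genes of ER protein folding and the unfolded protein response leaned upward, 8 of 32 being higher and 0 lower without overlap (25.0% and 0%), with a median of 0.086. None passed the test. Derl2, a retrotranslocation factor, was at 47.5, 51.4 and 45.2 CPM at 4M and at 59.6, 57.0 and 60.8 CPM at 6M (0.30, FDR = 0.0737), while the abundant disulphide isomerase P4hb overlapped (0.03). Genes of RNA binding and stress-induced splicing gave 5 higher and 0 lower of 20 (25.0% and 0%, median 0.11). Zinc finger genes gave 57 higher and 20 lower of 340 (16.8% and 5.88%, median 0.074). Loci of the GENCODE biotype TEC, transcribed regions without an experimentally proven transcript, gave 149 higher and 25 lower of 1017 (14.7% and 2.46%, median 0.15). No TEC locus passed the test, and as a share of counts TEC loci overlapped between the ages (exact two-sided permutation p = 0.3).

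**Figure D4:**
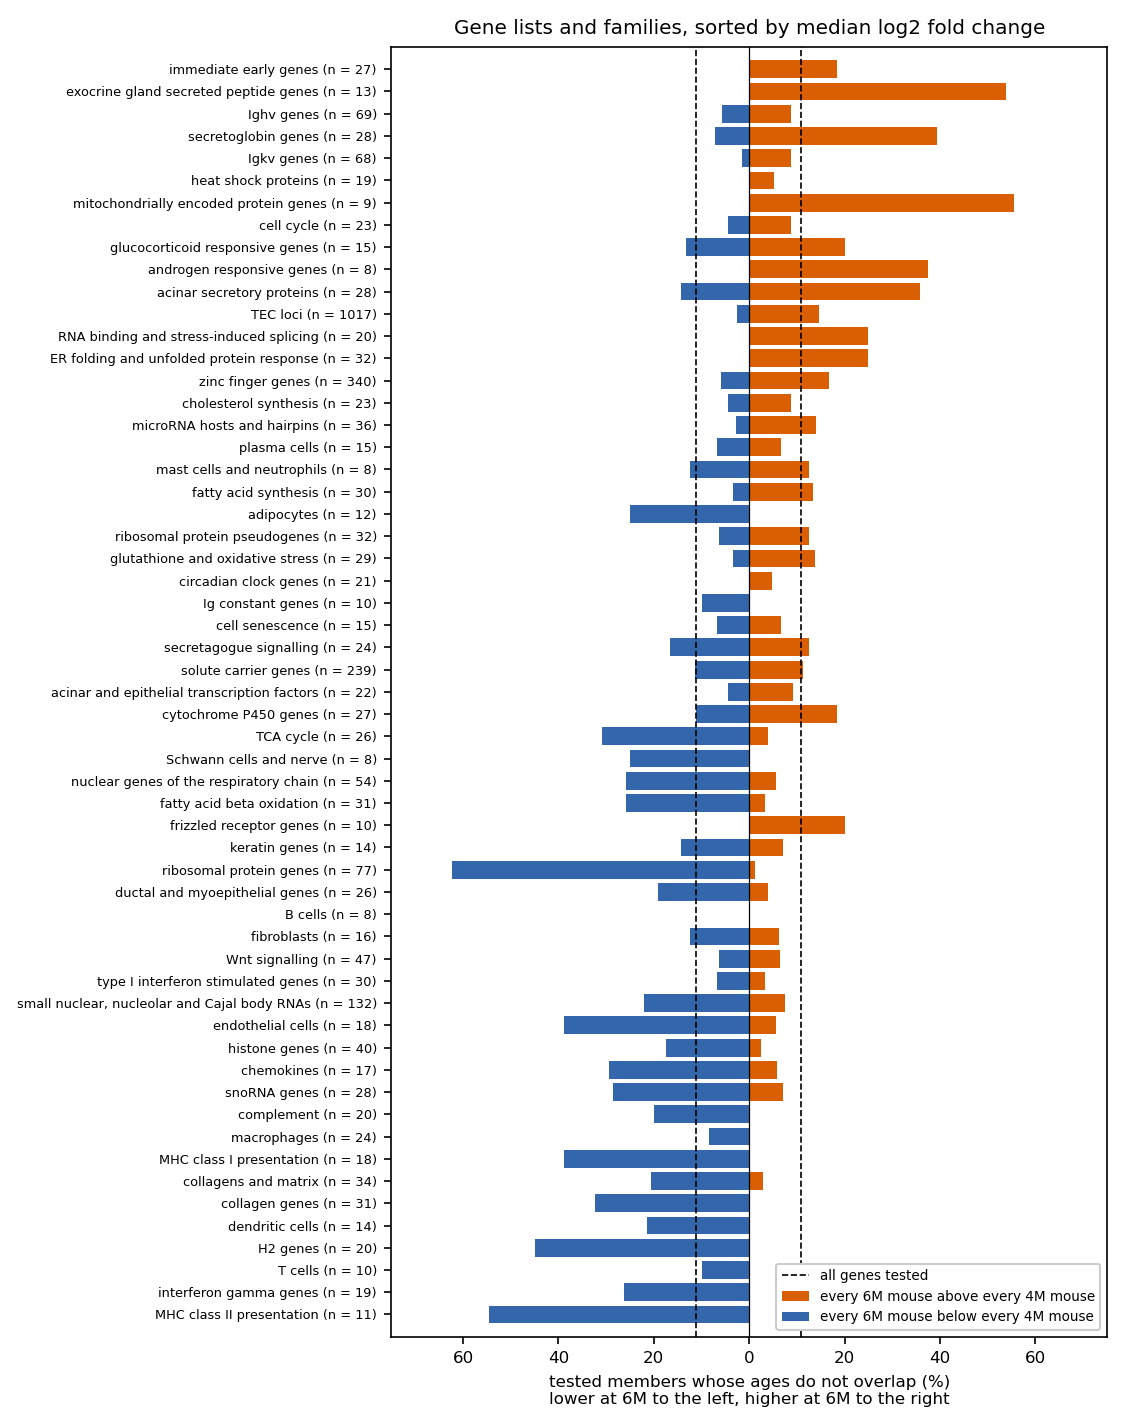
Share of the tested members of each list or family with at least 8 of them in which the 3 6M mice lie all below (left, blue) or all above (right, orange) the 3 4M mice. Dashed lines mark the shares over all 16622 genes, 11.1% and 10.9%. Ribosomal protein genes reach 62.3% to the left, while exocrine gland secreted peptides (53.8%) and mitochondrially encoded genes (55.6%) reach farthest to the right.

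Most collagen and endothelial genes had log2 fold changes below 0, none of either group past the test. Of 31 collagen genes 10 were lower and 0 higher without overlap (32.3% and 0%, against 11.1% and 10.9% of all genes), with a median of -0.35. The size of this shift rested in part on 4M replicate 3, without which the median was -0.21 and 4 genes in place of 11 were lower at an unadjusted p under 0.05. Without 4M replicate 1, 21 were lower without overlap (2865 of all 16848 genes tested) and the median was -0.45. The 34 genes of the list of collagens and matrix likewise went from a median of -0.32 to -0.165 without 4M replicate 3 and -0.21 without 6M replicate 1. Hspg2, the basement membrane proteoglycan perlecan, was at 53.8, 62.4 and 66.2 CPM at 4M and at 42.6, 46.7 and 49.5 CPM at 6M (-0.40, FDR = 0.0745). Col15a1 was at 10.1, 13.0 and 13.1 CPM at 4M and at 7.77, 8.91 and 9.18 CPM at 6M (-0.49, FDR = 0.0936). Col3a1, the most abundant, overlapped, with 4M replicate 3 the highest mouse at 214 CPM. Of 18 endothelial genes 7 were lower and 1 higher without overlap (38.9% and 5.56%, median -0.20), among them Pecam1 (-0.38) and Cdh5, VE-cadherin (-0.37).

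Antigen presentation and interferon gamma genes were lower at 6M, in part through 1 mouse. Of 18 genes of MHC class I presentation 7 were lower and 0 higher without overlap (38.9% and 0%, against 11.1% and 10.9% of all genes), with a median of -0.31 that was -0.15 without 4M replicate 3. Of 11 class II genes 6 were lower and 0 higher (54.5% and 0%), with a median of -0.85 that was -0.29 without that mouse. The 19 interferon gamma genes had a median of -0.84, which was -0.44 without it, and 5 were lower without overlap (26.3%). None of these genes passed the test. Gbp2, an interferon-induced GTPase, was at 3.07, 2.28 and 3.43 CPM at 4M and at 1.76, 1.31 and 1.32 CPM at 6M (-0.99, FDR = 0.0745). Irf1 was at 18.6, 17.6 and 19.2 CPM at 4M and at 13.7, 15.7 and 11.7 CPM at 6M (-0.43, FDR = 0.0920). In both the ages were apart without relying on 4M replicate 3. Cd74, the class II invariant chain, was at 65.2, 59.2 and 115 CPM at 4M and at 49.2, 59.4 and 50.5 CPM at 6M, and the ages overlapped.

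Lymphocyte genes moved with that mouse. The 10 T cell genes tested, of 23 listed, summed to 6.51, 5.68 and 14.2 CPM at 4M and to 6.11, 7.85 and 6.76 CPM at 6M. Their median log2 fold change was -0.63 with all 6 mice and, over the 9 genes that still passed the filter, 0.084 without 4M replicate 3. The 24 macrophage genes summed to 144, 151 and 222 CPM at 4M and to 134, 165 and 140 CPM at 6M. Their median went from -0.30 to 0.00057 without 4M replicate 3. The part of these cells in the lower level of antigen presentation genes was not tested.

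Acute stress genes were higher in 1 or 2 of the 6M mice. The heat shock genes summed to 924 to 1036 CPM in the 4M mice and to 910, 919 and 1874 CPM in the 6M mice. Hspa1b, an inducible HSP70 gene, was at 6.09, 1.99 and 4.57 CPM at 4M and at 2.64, 4.17 and 51.2 CPM at 6M, so that 6M replicate 3 alone stood out. The median log2 fold change of the 19 genes was 0.31, and -0.03 without that mouse. Fos, an immediate early gene, was at 1.11, 2.06 and 1.26 CPM at 4M and at 2.98, 24.4 and 35.4 CPM at 6M. Egr1 was at 1.85, 1.89 and 1.04 CPM at 4M and at 7.90, 26.0 and 36.7 CPM at 6M. In both genes every 6M mouse was above every 4M mouse, yet neither passed the test (FDR = 0.250 and 0.153), the 6M mice being far apart. The 27 immediate early genes gave 5 higher and 0 lower without overlap (18.5% and 0%, against 10.9% and 11.1% of all genes), with a median of 0.37. The median was 0.10 without 6M replicate 3. Without 6M replicate 1 it was 0.55, 15 genes were higher without overlap and 5 passed the test. Over all 16880 genes tested in that setting, 2514 were higher without overlap and 14 passed as higher.

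Cell cycle genes followed the same mouse, with a median of 0.23 over 23 genes that was -0.205 without 6M replicate 3. Top2a, named after its values were seen, was at 1.08, 1.84 and 1.90 CPM at 4M and at 0.976, 0.986 and 4.38 CPM at 6M. Some clock genes were also lowest in 6M replicate 3. Over the 21 tested, the mean deviation from the 6-mouse mean was -0.187 log2 CPM in that mouse and -0.168 in 4M replicate 2. Dbp, a clock output gene, was at 18.0, 7.91 and 10.2 CPM at 4M and at 24.3, 28.9 and 4.99 CPM at 6M, the lowest value being again 6M replicate 3. Nr1d1 was at 28.4 to 36.2 CPM at 4M and at 34.8, 48.2 and 11.7 CPM at 6M. None of the 21 clock genes passed the test, and the time of day at which glands were taken is not given in the sources used here.

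**Figure D5:**
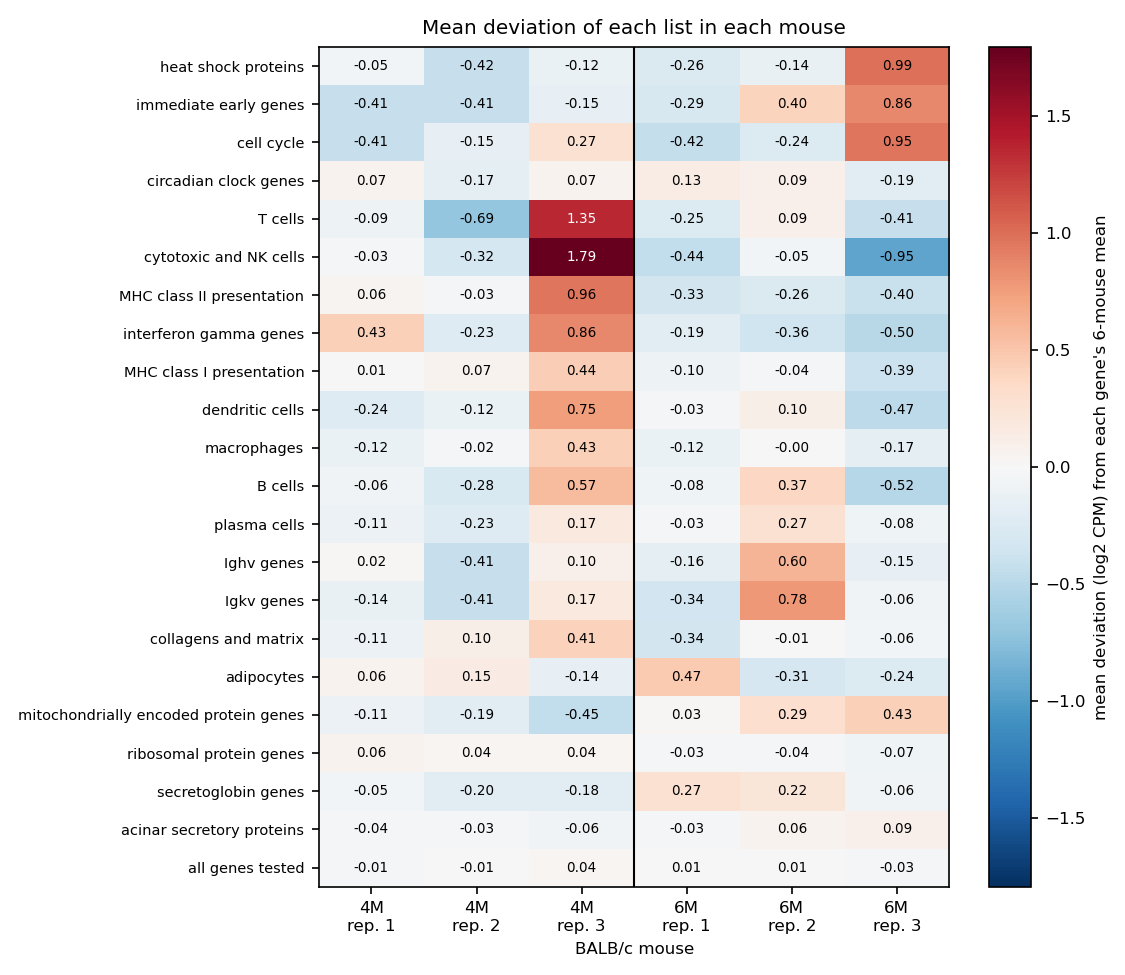
Mean deviation of each list (rows) in each BALB/c mouse (columns), as log2 CPM minus the mean of the 6 mice, averaged over the tested members. Red is above and blue below the mean. The strongest cells belong to 4M replicate 3 (T cells 1.35, cytotoxic and NK cells 1.79) and 6M replicate 3 (heat shock proteins 0.99, cell cycle 0.95), while ribosomal protein genes stay within 0.07 of the mean in every mouse.

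Variation between mice of 1 age was about as large as that between ages. The leading distance, the root mean square log2 difference over the 500 genes that differ most in a pair, averaged 1.80 within 4M (3 pairs, 1.74 to 1.89), 1.92 within 6M (3 pairs, 1.67 to 2.08) and 1.94 between the ages (9 pairs, 1.59 to 2.16). The closest pair of all joined 4M replicate 1 with 6M replicate 1. The most distant joined 4M replicate 3 with 6M replicate 3. Pairs share mice, so these are descriptions without a test. The biological coefficient of variation was 0.130 at 4M and 0.146 at 6M, and the median SD of log2 CPM 0.133 and 0.150.

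The variation was concentrated in a pair of mice. Of the 500 most variable genes above an average log2 CPM of 3, 6M replicate 3 was the mouse farthest from the median in 231 and 4M replicate 3 in 105. The most variable of all were Ighv10-1 (SD within an age 1.97), Hspa1b (1.73), Mup5 (1.61), the unnamed locus Gm14129 (1.54) and Igkv1-110 (1.49), followed by Fos, Igkv4-72, Scgb2b33, Gm14743 and Dbp. Mup5 was at 558, 103 and 28.2 CPM at 4M and at 161, 233 and 85.3 CPM at 6M. Gm14129 was at 51.5, 65.9 and 31.1 CPM at 4M and at 65.3, 175 and 9.88 CPM at 6M. No age was set apart in either. Without 6M replicate 3, the deviating 6M mouse, 243 genes passed the test in place of 51, whereas leaving out 6M replicate 2 left 8.

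Beside the neighbouring interval the change was small, while more genes passed than in NOD.H-2b over the same interval. Between 2M and 4M in BALB/c, 1849 of 16639 genes tested passed an FDR of 0.05 (11.1%), in a comparison that uses the same 4M mice. Several genes that fell after 4M had been lower at 2M than at 4M. Snora73b was at 37.5, 31.5 and 27.8 CPM at 2M (log2 fold change from 2M to 4M 0.62), Gm25395 at 75.6, 70.0 and 69.3 CPM (0.42), and Tjp3 at 37.3, 34.9 and 32.9 CPM (0.71). Others had not, and Kcnn4 was at 21.7 to 23.8 CPM at 2M (0.18). Between 4M and 6M in NOD.H-2b, 1 of 18026 genes passed (0.00555%). An unadjusted p under 0.05 by edgeR was reached by 2490 genes there and by 2583 in BALB/c. Gm25395 was at 67.6, 74.2 and 68.8 CPM at 4M and at 55.3, 49.8 and 53.6 CPM at 6M in NOD.H-2b, a log2 fold change of -0.41 that did not pass (FDR = 0.301), and no overlap between the ages.

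The change from 4M to 6M was tested for a difference between the strains. By edgeR's quasi-likelihood F test 0 of 18741 genes passed (0%), with 1893 at an unadjusted p under 0.05. DESeq2's Wald test called 40. By edgeR the smallest FDR, 0.245, was that of Alas1, the first enzyme of haem synthesis, and of Ighv1-53. The third gene by p was Cnot11, a subunit of the deadenylase CCR4-NOT (FDR = 0.390). In BALB/c, Ighv1-53 was at 1.15, 0.743 and 0.821 CPM at 4M and at 0.361, 0.464 and 0.425 CPM at 6M, without overlap (-1.13, FDR = 0.136). Of the 40 genes that DESeq2 called, 6 were among the 51 that passed in BALB/c. These were Iglv1 (FDR = 1.66e-05), Ccl28, Iglc1, Eml6, Lipo1 and Abcc4 (FDR = 0.0309). With edgeR, Ccl28 had the smallest FDR (0.0371) of 3 genes called without NOD.H-2b 4M replicate 1. Whether these genes changed differently in the strains thus depended on the tool, and for the other genes that passed in BALB/c a difference between the strains was not shown by either.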

How the data were processed

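One LG per male mouse was taken, and total RNA was depleted of ribosomal RNA and sequenced as paired reads by the authors. Per the study's methods and processing notes, reads were trimmed with cutadapt, checked with FastQC, aligned to GRCm38 with STAR and counted per gene with HTSeq. The use of strand and the treatment of reads that map to several places are not given in the sources used here. The authors deposited raw counts per gene, which were used here, and a log2 table of DESeq2-normalized values, which was not used.

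Groups came from the labels, with 3 mice each. Genes were filtered with filterByExpr over the 6 mice, scaled by TMM and tested with edgeR 4.0.16 (robust quasi-likelihood F test, R 4.3.3, limma 3.58.1), without pairing. A gene was called at an FDR under 0.05, and separately with a change of at least 2-fold. CPM used no prior count, and log2 CPM for distances and spread used a prior count of 2. Tests were checked on simulated counts. The interaction was fitted over the 12 mice of 4M and 6M. Alternatives used DESeq2 1.42.0, other scalings, filters and fits, and leaving out each mouse. Annotation and sequences came from GENCODE M21 (GRCm38), motifs and identities from Python 3.11.15, and exact permutation tests from scipy 1.17.1.

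Named genes were the genes past both thresholds, the 5 each way with the smallest p at an average log2 CPM of at least 3, of each list the most abundant member and the 2 with the smallest p, the 10 most variable genes, the 3 smallest interaction p-values and the leading immunoglobulin segments. Other genes at an FDR under 0.05, and those marked in the text, were added after their values were seen. The comparison, the lists and the families were chosen with earlier results of these data known. The Lipo, short nuclear RNA and Iglc families were grouped after their values were seen. 1 gene past the threshold is counted but not reported here.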

Additional observations from a re-analysis of the deposited data

How the results depend on the processing

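The number of calls was not stable. None of 815 recomputed fold changes of the 51 genes changed sign. These genes were picked for separating the ages in these same mice, so a change of sign was hardly possible, and the count is no support for their direction. 525 stayed past the threshold, and of the 290 that did not, 198 came from leaving out a mouse. These recomputations leave out glmTreat against a 2-fold change, which called 1 gene. Under all the others Snora73b, Kcnn4 and Gm25395 passed, and 10 genes passed under every other one that keeps the 6 mice. Among these others, Iglc1 and Iglv1 missed the threshold only in the fit of all 18 mice (FDR = 0.0522 and 0.0722). With 3 higher and 3 lower at 2-fold and 51 at any fold in the reported fit, the counts were 61, 45 and 847 without a filter on low counts, 11, 5 and 428 by DESeq2's Wald test, and 11, 6 and 283 in the fit of the 9 BALB/c mice. The fit of 18 mice gave 10 higher and 124 at any fold, the fit without robust estimation 1 and 18, and glmTreat against a 2-fold change 0, 1 and 1. At any fold, 4 genes were higher and 14 lower without robust estimation, against 29 and 22 in the reported fit. Unfiltered genes include many with nearly no counts. The cause of the other shifts was not tested. DESeq2 size factors, upper quartile scaling, at least 10 counts in every mouse and thinning to the shallowest mouse gave 48, 53, 48 and 58 genes.

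Leaving out 1 mouse gave 0 to 22 genes higher and 2 to 5 lower at 2-fold, and 8 to 243 at any fold (18, 11 and 14 without 4M replicates 1, 2 and 3, and 25, 8 and 243 without 6M replicates 1, 2 and 3). Of the 243, 50 were among the 51. List medians moved by more than the median SD within an age of the list's single genes in 6 of 1071 recomputations. These were the class II list (-0.29) and complement genes (-0.021) without 4M replicate 3, the Iglc genes without that mouse (-0.13), and the 3 Iglv genes without 4M replicate 3 (-0.73), without 6M replicate 3 (-0.79) and with at least 10 counts in every mouse (-0.77). That SD is a wide limit for a median, and some medians changed sign within it. T cell genes went from -0.63 to 0.084 without 4M replicate 3. Without 6M replicate 3, cell cycle genes went from 0.23 to -0.205 and heat shock genes from 0.31 to -0.03.

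The interaction had 40 genes by DESeq2, 9 with a replicate block within strain, and 0 to 4 without 1 mouse (4 without BALB/c 6M replicate 1, 3 without NOD.H-2b 4M replicate 1). The replicate block gave 3 higher and 5 lower at 2-fold and 46 at any fold, 32 of them among the 51. Same-numbered mice share only a number. Their deviations correlated at 0.0588, -0.00589 and 0.0688, and 4M replicate 2 correlated best with 6M replicate 1 (0.0616).

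Distances within 4M, within 6M and between ages were 0.459, 0.483 and 0.502 over all genes, and 2.04, 2.18 and 2.19 with a prior count of 0.5. Leaving out 1 mouse gave 1.73 to 1.89, 1.68 to 2.05 and 1.85 to 2.02.

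Genes under 1 CPM rest on few counts, and intervals on counts cover counting error only.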

Other observations

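Several groups outside the comparisons above held genes with ages that did not overlap, none of them past the test. Over all genes tested 10.9% were higher and 11.1% lower without overlap. Of 15 glucocorticoid responsive genes 3 were higher and 2 lower (20% and 13.3%), close to those shares, with a median log2 fold change of 0.19. Fkbp5, a chaperone of steroid receptors, was at 244, 217 and 271 CPM at 4M and at 312, 356 and 307 CPM at 6M (0.41, FDR = 0.0751). Of 30 genes of fatty acid synthesis 4 were higher and 1 lower (13.3% and 3.33%), also close for the higher genes. Thrsp, a regulator of lipogenesis, was at 2.04, 1.86 and 2.13 CPM at 4M and at 5.55, 6.32 and 2.57 CPM at 6M (1.26, FDR = 0.128), with 6M replicate 3 close to the 4M mice. Without that mouse its log2 fold change was 1.56 and its FDR 0.000999. Scd2, a fatty acid desaturase, was at 338, 406 and 339 CPM at 4M and at 522, 432 and 454 CPM at 6M (0.38, FDR = 0.113).

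Of 40 histone genes 7 were lower and 1 higher without overlap (17.5% and 2.5%), with a median of -0.24, among them Hist1h4h (-0.34) and Hist4h4 (-0.38). The growth factor Igf1 was at 7.86, 9.99 and 10.8 CPM at 4M and at 12.7, 13.9 and 15.2 CPM at 6M (0.54, FDR = 0.0818). The transcription factor Mitf was at 9.78, 10.7 and 10.0 CPM at 4M and at 13.1, 12.7 and 12.7 CPM at 6M (0.34, FDR = 0.0936). Of 12 fat cell genes tested 3 were lower and 0 higher without overlap (25.0% and 0%), with a median of 0.051 and none past the test. Their sum was 69.9, 75.6 and 79.8 CPM at 4M and 68.5, 63.8 and 58.4 CPM at 6M, without overlap. Adipoq had 12, 14 and 4 counts at 4M and 45, 1 and 4 counts at 6M, the highest in 6M replicate 1, the deepest library. The lipase Pnpla2, which other cells also use, was lower in every 6M mouse (-0.30, FDR = 0.0762).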
